A study of Mus musculus with 8 samples.

Results

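A group of 10 genes of the breakdown of the branched-chain amino acids leucine, isoleucine and valine were taken by symbol, and the rule that reads them uses no difference between groups: Bcat1, Bcat2, Bckdha, Bckdhb, Dbt, Bckdk, Ppm1k, Ivd, Mccc1 and Hibch. Each was read from every probe set that names it and no other gene, and the one with the highest mean, all 8 arrays together, was taken as its main probe set. By that rule 9 of the 10 genes were measured, by 12 probe sets, among 17097 genes in all. Ivd was not analysed here.

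Gene expression was measured in isolated pancreatic islets of 20-week-old mice on 8 Affymetrix arrays, 2 in each of 4 groups. The groups were PBA-treated hIAPP transgenic mice, untreated hIAPP transgenic mice, PBA-treated wild-type mice and untreated wild-type mice, and the strain background of all 4 is given as FVB/N-Tg(Ins2-IAPP)RFHSoel/J. The transgene makes human islet amyloid polypeptide (hIAPP), an amyloid-forming peptide, under the control of an insulin promoter, so its product arises in beta cells, while the arrays read RNA of whole islets. PBA is 4-phenylbutyrate, given at 1 g/kg/day in water for 12 weeks from the age of 8 weeks, and it is known both as a chemical chaperone and as an inhibitor of the kinase that Bckdk encodes. Whether a group's arrays come from separate mice or from pooled islets is not labelled. A p-value therefore measures how these samples spread, which may be technical.

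Branched-chain amino acids are first stripped of their amino group by a transaminase, cytosolic BCAT1 or mitochondrial BCAT2. The resulting ketoacids are oxidised by the mitochondrial branched-chain ketoacid dehydrogenase, whose E1 part is built from BCKDHA and BCKDHB and whose E2 core is DBT. The kinase BCKDK phosphorylates E1 and slows the complex, and the phosphatase PPM1K removes the phosphate and restores activity. Later steps are particular to each amino acid: MCCC1 is the biotin-carrying subunit of methylcrotonyl-CoA carboxylase in the leucine branch, and HIBCH is a hydrolase of the valine branch. Phosphorylation of E1 is not read by an RNA array, which shows transcript levels only.

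RefSeq promoter windows (mouse assembly GRCm38.p6) were found for 9 of the 10 genes, at 12 starts. Those of Bcat1, Mccc1, Ppm1k, Bckdhb and Bckdk are shown, the measured genes with a CCAAT box in a window, because they include both genes that passed a test below and both regulators of the complex. The windows of Bcat2, Bckdha and Hibch hold no CCAAT box. Each line gives the 150 bases before a start, 5′ to 3′ on the strand of the gene, and capitals mark the CCAAT box, searched as CCAAT on either strand (which reads ATTGG on the other). For Bcat1 and Bckdhb, which have 2 starts each in the table, the start that holds the motif is shown.
Bcat1, chr6:145076158-145076307, minus strand: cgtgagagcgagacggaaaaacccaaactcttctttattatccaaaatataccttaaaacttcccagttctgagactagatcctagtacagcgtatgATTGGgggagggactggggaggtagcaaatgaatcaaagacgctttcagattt
Mccc1, chr3:36000679-36000828, minus strand: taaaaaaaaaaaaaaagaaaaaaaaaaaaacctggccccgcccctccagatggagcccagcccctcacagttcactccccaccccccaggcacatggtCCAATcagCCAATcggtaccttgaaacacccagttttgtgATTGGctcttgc
Ppm1k, chr6:57535488-57535637, minus strand: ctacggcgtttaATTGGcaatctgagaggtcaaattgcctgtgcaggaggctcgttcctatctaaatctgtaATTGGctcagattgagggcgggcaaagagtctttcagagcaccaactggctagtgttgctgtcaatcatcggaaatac
Bckdhb, chr9:83924987-83925136, plus strand: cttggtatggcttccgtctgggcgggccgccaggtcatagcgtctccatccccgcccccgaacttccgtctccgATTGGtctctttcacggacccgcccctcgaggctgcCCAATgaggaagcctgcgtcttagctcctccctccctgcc
Bckdk, chr7:127903923-127904072, plus strand: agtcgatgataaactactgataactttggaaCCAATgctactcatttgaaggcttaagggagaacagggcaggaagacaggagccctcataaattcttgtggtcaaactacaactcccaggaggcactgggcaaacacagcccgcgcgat
Mccc1 has 3 matches in its window, Ppm1k and Bckdhb 2 each, and Bcat1 and Bckdk 1 each. The motif occurred at 6 of the 12 starts of these genes, against 24.5% of all 32851 promoter windows of the same length. The GC box GGGCGG, read on both strands, occurred at 4 of the 12 starts and in 28.6% of all windows. Its reverse CCGCCC can share its end with a CCAAT box. The E-box CACGTG occurred at 0 of the 12 starts and in 4.3% of all windows. The motifs were chosen after the sequences were seen, and a match in this window describes letters only.

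All levels are log2 values as the authors normalised them, given to 1 decimal, so that 0.1 is the smallest step. The probe sets of different genes bind with different strength, and their levels are not compared with each other. The 95th percentile of the non-specific control probe sets, 4.68, is used below as the level of background. Within groups, arrays correlated across genes with r between 0.993 and 0.994. The hybridisation controls had a median of 6.95 on array 1 of PBA-treated wild-type islets and of 9.80 to 10.20 on the other 7. The labelled tissue was borne out by its markers: Ins2, an insulin gene, was at 14.0 or 14.1 on all 8 arrays and Slc2a2, the beta-cell glucose transporter gene, at 11.5 to 12.4. Exocrine RNA varied, with a median of 11 acinar markers, mainly digestive enzyme genes, of 9.20 and 10.80 in PBA-treated hIAPP islets, 11.80 and 12.70 in untreated hIAPP islets, 12.40 and 11.30 in PBA-treated wild-type islets, and 12.60 and 11.20 in untreated wild-type islets.

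Among the 9 genes, Bcat1 had the largest changes: it was higher in hIAPP than in wild-type islets without PBA, and PBA-treated hIAPP islets had less of it than untreated ones. Mccc1 was lower in hIAPP than in wild-type islets without PBA. No other gene of the 9 passed the test in any comparison, and Bckdk, the kinase gene, stayed between 8.6 and 8.9 on all 8 arrays. The test was limma's on all 8 arrays, two-sided, and a gene passed with a Benjamini-Hochberg adjusted p under 0.05 over 17097 genes. The PBA comparison in hIAPP islets and the transgene comparison without PBA share the untreated hIAPP arrays, so a high level there gives a fall with PBA and a rise with the transgene.

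**Figure D1:**
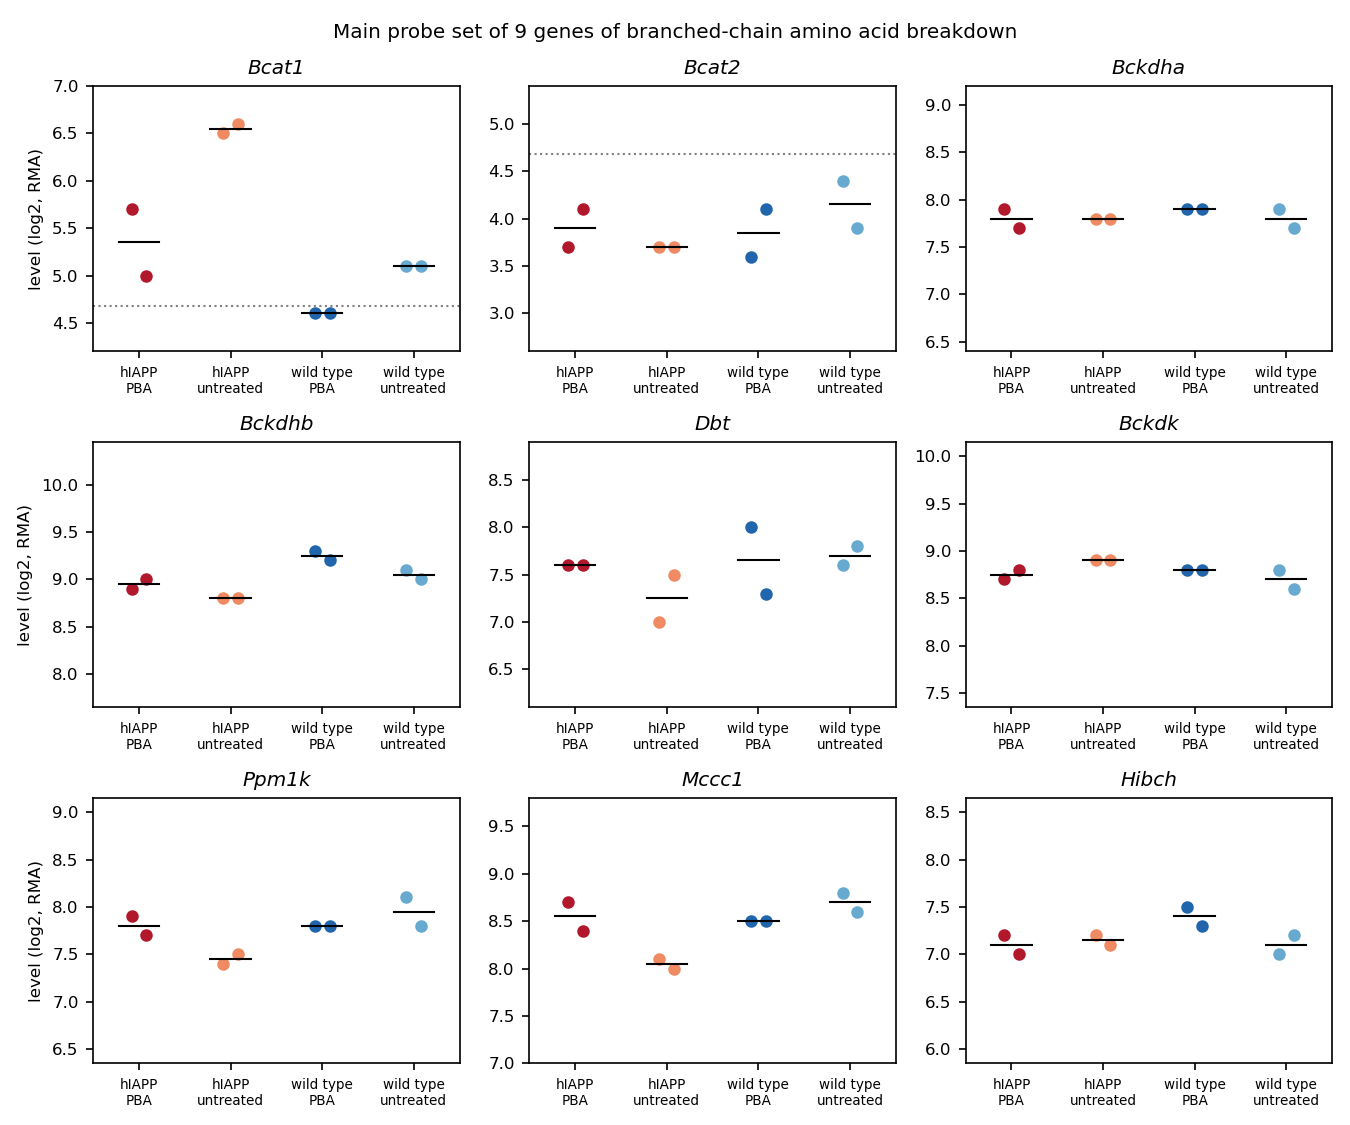
Level (log2, RMA) of the main probe set of each of the 9 genes on the 8 arrays. Dots are arrays, black bars group means (n = 2), and the dotted line the background level, 4.68. All panels span the same range of log2 units. Bcat1 is highest at 6.5 and 6.6 in untreated hIAPP islets, Mccc1 is lowest there at 8.1 and 8.0, and Bckdk lies between 8.6 and 8.9 throughout.

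Bckdk, the kinase that holds the dehydrogenase inactive and that PBA inhibits as a protein, was at 8.7 and 8.8 in PBA-treated hIAPP islets, against 8.9 and 8.9 in untreated hIAPP islets. It was at 8.8 and 8.8 in PBA-treated wild-type islets, against 8.8 and 8.6 in untreated wild-type islets. The PBA-treated hIAPP arrays lay just below the untreated hIAPP arrays, while the wild-type groups overlapped. The log2 change with PBA was -0.15 in hIAPP islets (SE 0.11, 95% interval -0.40 to 0.10, adjusted p = 0.4637) and 0.10 in wild-type islets (SE 0.11, interval -0.15 to 0.35, adjusted p = 0.7868). Averaged over both genotypes it was -0.03 (interval -0.20 to 0.15), so a change beyond these bounds in either direction lies outside the interval of the fit. The transgene changed Bckdk by 0.20 without PBA (interval -0.05 to 0.45) and by -0.05 under PBA (interval -0.30 to 0.20), neither of which passed.

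Ppm1k, the phosphatase that reverses the action of the kinase, was at 7.9 and 7.7 in PBA-treated hIAPP islets, against 7.4 and 7.5 in untreated hIAPP islets. It was at 7.8 and 7.8 in PBA-treated wild-type islets, against 8.1 and 7.8 in untreated wild-type islets. The untreated hIAPP arrays were the lowest of the 8 and overlapped with no other group. The log2 difference between untreated hIAPP and untreated wild-type islets was -0.50 (SE 0.13, adjusted p = 0.0549), just short of the threshold. The change with PBA was 0.35 in hIAPP islets (SE 0.13, adjusted p = 0.1679) and -0.15 in wild-type islets (SE 0.13, adjusted p = 0.7395). The test of the difference between these 2 PBA effects gave 0.50 (SE 0.19, adjusted p = 0.2397) and did not pass. The transgene difference passed under 4 of 17 alternatives. These were genes above background only (-0.50, adjusted p = 0.0354), the mean of the probe sets of each gene (-0.50, adjusted p = 0.0430), a trend with robust eBayes (-0.50, adjusted p = 0.0109), and arrays centred on the median of all genes (-0.70, adjusted p = 0.0134). With PBA in hIAPP islets Ppm1k passed when arrays were centred (0.55, adjusted p = 0.0309). Centring moves every gene by the same amount. Of all genes, 25.4% then passed for the transgene and 20.5% for PBA in hIAPP islets.

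None of the 3 subunit genes of the dehydrogenase itself passed the test in any comparison. Bckdha, the E1 alpha subunit that the kinase phosphorylates, was at 7.9 and 7.7 in PBA-treated hIAPP islets and at 7.8 and 7.8 in untreated hIAPP islets. Its wild-type levels were 7.9 and 7.9 with PBA and 7.9 and 7.7 without. Its log2 change with PBA was 0.00 in hIAPP islets (interval -0.27 to 0.27) and 0.10 in wild-type islets (interval -0.17 to 0.37), and its PBA-treated and untreated arrays overlapped in both genotypes. The difference between untreated hIAPP and untreated wild-type islets was 0.00 (interval -0.27 to 0.27).

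Bckdhb, the E1 beta subunit, was at 8.9 and 9.0 in PBA-treated hIAPP islets, against 8.8 and 8.8 in untreated hIAPP islets. In wild-type islets it was at 9.3 and 9.2 with PBA, against 9.1 and 9.0 without. Within each genotype the PBA-treated arrays were above the untreated arrays, and within each treatment the hIAPP arrays were below the wild-type arrays. None of these differences passed: the change with PBA was 0.15 in hIAPP islets and 0.20 in wild-type islets (SE 0.10 each, adjusted p = 0.4273 and 0.5262), and 0.18 averaged over genotypes (SE 0.07, adjusted p = 0.2211). The transgene difference was -0.25 without PBA and -0.30 under PBA (adjusted p = 0.1702 and 0.3087). With arrays centred on the median, the fall in untreated hIAPP islets (-0.45, adjusted p = 0.0204) and the rise with PBA in hIAPP islets (0.35, adjusted p = 0.0465) passed. Centring moves every gene by the same amount, and 25.4% and 20.5% of all genes then passed in these comparisons, against 11.0% and 8.09% without it.

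Dbt, the E2 core, was the most scattered subunit gene, at 7.6 and 7.6 in PBA-treated hIAPP islets, 7.0 and 7.5 in untreated hIAPP islets, 8.0 and 7.3 in PBA-treated wild-type islets and 7.6 and 7.8 in untreated wild-type islets. Its SE was 0.25, the largest of the 9 genes. Its log2 change with PBA was 0.35 in hIAPP islets (interval -0.23 to 0.93, adjusted p = 0.4637) and -0.05 in wild-type islets (interval -0.63 to 0.53). With the transgene it was -0.45 (interval -1.03 to 0.13, adjusted p = 0.3147). The arrays did not overlap in the PBA comparison of hIAPP islets or in the transgene comparison without PBA.

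**Figure D2:**
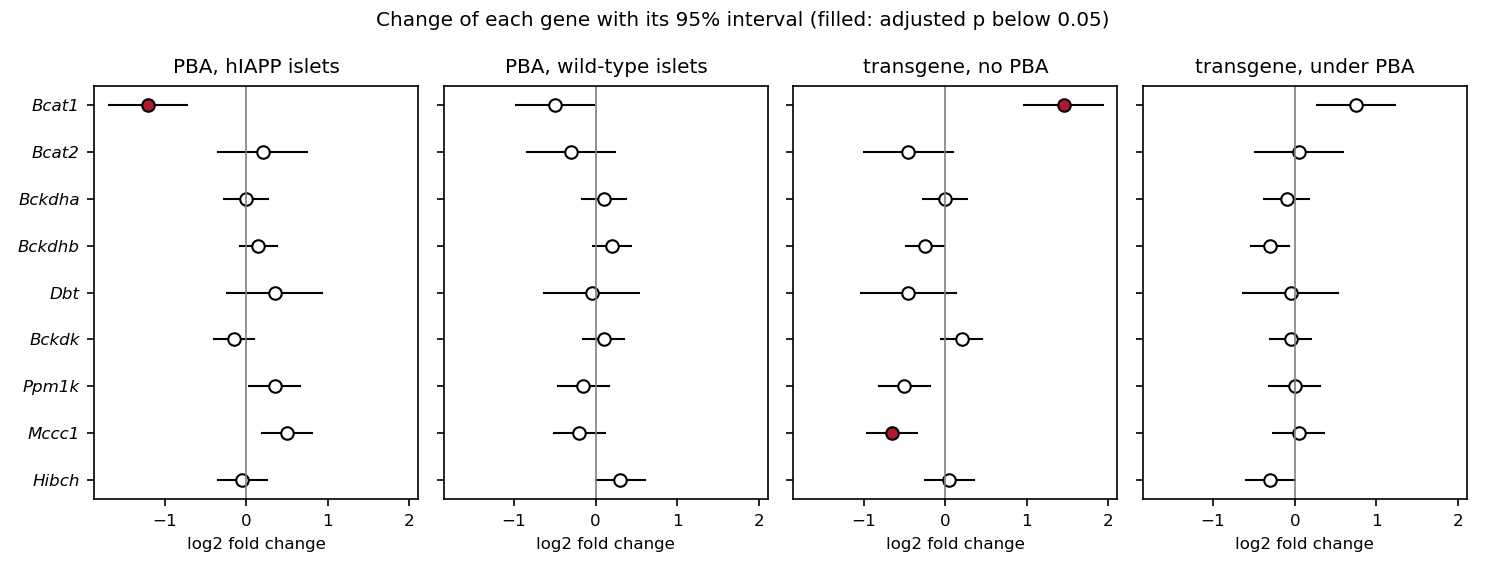
Log2 fold change (horizontal axis) of each of the 9 genes in 4 comparisons, with its 95% interval from the fit. Filled points have an adjusted p under 0.05. They are Bcat1 (-1.20) for PBA in hIAPP islets, and Bcat1 (1.45) and Mccc1 (-0.65) for the transgene without PBA. The intervals of Bckdk and Bckdha include 0 in all 4 panels. Bcat2 was below background on all arrays, and Bcat1 in PBA-treated wild-type islets.

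Bcat1, the cytosolic transaminase, was at 5.7 and 5.0 in PBA-treated hIAPP islets, against 6.5 and 6.6 in untreated hIAPP islets. In wild-type islets it was at 4.6 and 4.6 with PBA, against 5.1 and 5.1 without. The untreated hIAPP arrays were the highest and the PBA-treated wild-type arrays the lowest, just below the background level of 4.68, and the untreated wild-type and PBA-treated hIAPP arrays lay between them with overlapping values. Untreated hIAPP islets were above untreated wild-type islets by 1.45 (SE 0.21, adjusted p = 0.0049), or 2.73-fold. With PBA, Bcat1 fell by 1.20 in hIAPP islets (SE 0.21, adjusted p = 0.0144), or 2.30-fold. In wild-type islets its change with PBA was -0.50 (SE 0.21, adjusted p = 0.4629), and the difference between the 2 PBA effects was -0.70 (SE 0.29, adjusted p = 0.2919), so a difference in response between genotypes did not pass. Averaged over genotypes, Bcat1 fell with PBA by 0.85 as measured (SE 0.15, adjusted p = 0.0214). Under PBA the hIAPP arrays were still above the wild-type arrays without overlap, by 0.75, which did not pass (SE 0.21, adjusted p = 0.2278). Since the PBA-treated wild-type arrays were not above background, differences from them have only a bound, taken against 4.70, the lowest value above background. Against it the mean of Bcat1 was at least 1.32-fold lower with PBA in wild-type islets and at least 1.57-fold higher in hIAPP than in wild-type islets under PBA, neither of which passed. Averaged over genotypes it was at least 1.74-fold lower with PBA. The difference between the 2 PBA effects is limited by the same arrays.

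The size and the call of the Bcat1 change rest on its main probe set and on the number of arrays. The other 2 probe sets of Bcat1 were near background. Of these, the dimmer probe set was at 3.8 and 4.0 in PBA-treated hIAPP islets, 4.5 and 4.7 in untreated hIAPP islets, 3.9 and 3.5 in PBA-treated wild-type islets and 4.2 and 4.0 in untreated wild-type islets. It kept the order of the hIAPP groups, with -0.70 for PBA in hIAPP islets and 0.50 for the transgene (adjusted p = 0.0619 and 0.1470 over all probe sets). The other was at 3.6 to 4.5 on all 8 arrays, with 0.05 and -0.20 for the same comparisons. The mean of the 3 probe sets changed by -0.62 with PBA in hIAPP islets (adjusted p = 0.0180) and by 0.58 with the transgene (adjusted p = 0.0179).

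The fall with PBA in hIAPP islets did not pass without either untreated hIAPP array (-1.25 without array 1, adjusted p = 0.1269, and -1.15 without array 2, adjusted p = 0.1205), either PBA-treated wild-type array (-1.20, adjusted p = 0.0651 each) or either untreated wild-type array (-1.20, adjusted p = 0.0585 each). It passed without array 1 of PBA-treated hIAPP islets (-1.55, adjusted p = 0.0240) and without array 2 (-0.85, adjusted p = 0.0306). With the acinar median of the arrays as a covariate it was -1.55 and did not pass (adjusted p = 0.1000). Fewer of all genes passed with this covariate too (0.485%, against 8.09%), as they did with any 1 array left out. The rise with the transgene did not pass without either untreated wild-type array (1.45, adjusted p = 0.0644 and 0.0724) or either untreated hIAPP array (1.50 and 1.40, adjusted p = 0.0689 and 0.0688). The PBA effect averaged over genotypes did not pass without any of the 4 untreated arrays or either PBA-treated wild-type array (-0.88 to -0.83, adjusted p = 0.0984 to 0.1273).

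Bcat2, the mitochondrial transaminase, was not above background on any array, at 3.7 and 4.1 in PBA-treated hIAPP islets, 3.7 and 3.7 in untreated hIAPP islets, 3.6 and 4.1 in PBA-treated wild-type islets and 4.4 and 3.9 in untreated wild-type islets. All of these values lie below 4.68, so no fold change of Bcat2 is given.

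Macrophage markers moved with Bcat1. The summed log2 level of 12 macrophage markers was 76.3 and 76.5 in PBA-treated hIAPP islets, 97.7 and 93.8 in untreated hIAPP islets, 65.1 and 66.2 in PBA-treated wild-type islets, and 73.4 and 73.3 in untreated wild-type islets. Of the 12, 9 passed as higher with the transgene, where 11.0% of all genes passed, and 9 as lower with PBA in hIAPP islets, where 8.09% did. The lysosomal gene Cd68, a defining marker, was at 7.5 and 7.4 in PBA-treated hIAPP islets, 8.9 and 8.5 in untreated hIAPP islets, 5.3 and 5.2 in PBA-treated wild-type islets and 6.0 and 6.2 in untreated wild-type islets. Itgam was at or below background on 7 of the 8 arrays. The median level of 10 stellate cell markers was likewise highest in untreated hIAPP islets, at 9.40 and 9.15, against 6.35 and 6.05 in untreated wild-type islets. That of 8 endothelial markers was 8.30 and 8.20 in untreated hIAPP islets, against 7.15 and 7.05 in untreated wild-type islets. With the transgene 9 of the 10 stellate, 6 of the 8 endothelial and 3 of 7 duct markers passed as higher. With PBA in hIAPP islets 8, 6 and 3 of them passed as lower, so the pattern was not particular to macrophage markers. The part of these cell types in the Bcat1 result was not tested. In whole-islet RNA, fewer cells of a type and less RNA per cell cannot be told apart.

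Across the 8 arrays, the 3 genes whose pattern was most like that of Bcat1, among 15432 compared, were Plekhf1 (Pearson's r = 0.992), Vsir (r = 0.989), an immune checkpoint gene of myeloid cells, and Fcgr3 (r = 0.988), an immunoglobulin receptor gene of myeloid cells. Fcgr3 was at 6.4 and 5.6 in PBA-treated hIAPP islets, 8.0 and 7.8 in untreated hIAPP islets, 4.7 and 5.2 in PBA-treated wild-type islets and 5.6 and 5.6 in untreated wild-type islets. For Bckdk the like genes were Omd (r = 0.977), Il20rb (r = 0.961) and Bri3bp (r = 0.947), over a range of 0.3 in Bckdk, and Omd and Il20rb were below background on all 8 arrays. For Bcat2 they were Hs6st1 (r = 0.962), Cplx3 (r = 0.962) and Bcar1 (r = 0.940), over Bcat2 values below background, and Cplx3 was below background on all 8 arrays too. Plekhf1 was below background in PBA-treated wild-type islets. The arrays share their groups, so these correlations over 8 arrays describe the pattern and are given without a test.

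**Figure D3:**
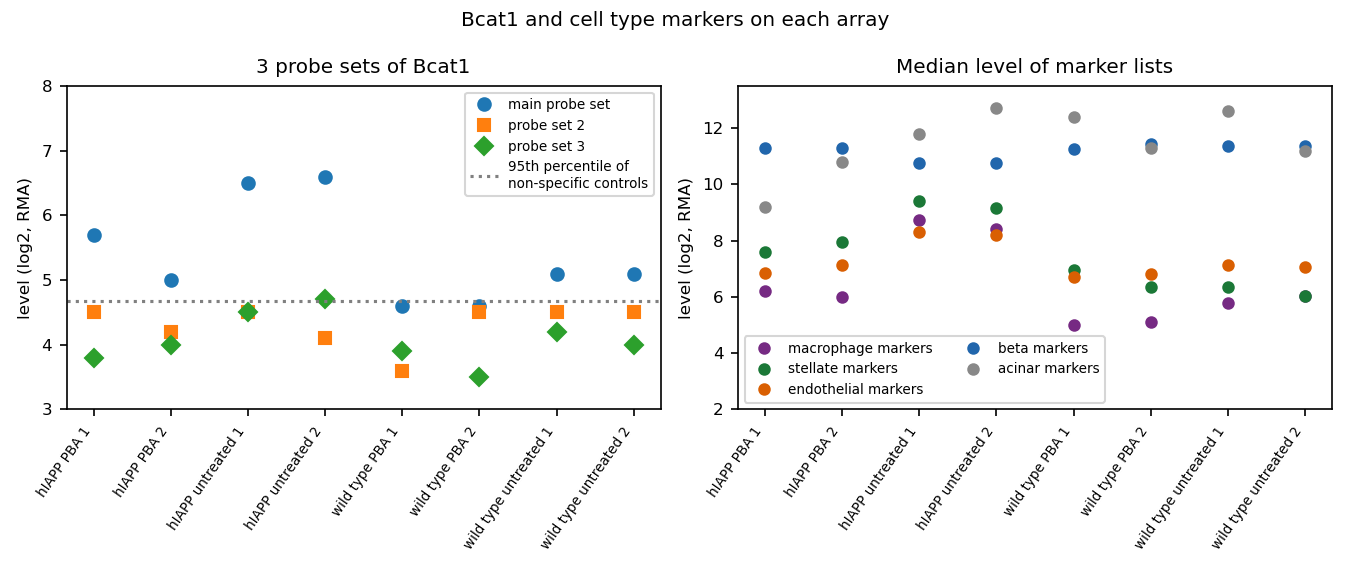
Left, level (log2, RMA) of the 3 probe sets of Bcat1 on each of the 8 arrays, with background (4.68) as a dotted line. Right, median level (log2, RMA) of 5 lists of cell type markers on the same arrays. The main probe set of Bcat1 is at 6.5 and 6.6 on the untreated hIAPP arrays, where the macrophage median is also highest, at 8.75 and 8.40, and the other 2 probe sets stay near or below 4.68.

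Mccc1, of the leucine branch, was lowest in untreated hIAPP islets, where Bcat1 was highest. It was at 8.7 and 8.4 in PBA-treated hIAPP islets, against 8.1 and 8.0 in untreated hIAPP islets. In wild-type islets it was at 8.5 and 8.5 with PBA, against 8.8 and 8.6 without. The untreated hIAPP arrays were the lowest of the 8, with no overlap with any other group, as for Ppm1k. Mccc1 fell by 0.65 in untreated hIAPP islets relative to untreated wild-type islets (SE 0.13, adjusted p = 0.0217), or 1.57-fold. With PBA in hIAPP islets its change was 0.50 (SE 0.13, adjusted p = 0.0660) and in wild-type islets -0.20 (SE 0.13, adjusted p = 0.6288). The difference between the 2 PBA effects was 0.70 (SE 0.19, adjusted p = 0.1234) and did not pass. Under PBA, hIAPP and wild-type islets differed by 0.05 (interval -0.26 to 0.36).

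The fall of Mccc1 with the transgene did not pass without either untreated wild-type array (-0.55 without array 1, adjusted p = 0.1413, and -0.75 without array 2, adjusted p = 0.0758), either untreated hIAPP array (-0.70 and -0.60, adjusted p = 0.1045 and 0.1294) or either PBA-treated wild-type array (-0.65, adjusted p = 0.0574 each). Fewer of all genes passed in those fits too. The rise with PBA in hIAPP islets passed with arrays centred on the median (0.70, adjusted p = 0.0177), when only genes above background were tested (0.50, adjusted p = 0.0428) and with a trend and robust eBayes (0.50, adjusted p = 0.0058). Of all genes tested, 20.5%, 15.7% and 13.4% passed under these alternatives. The summed log2 level of 10 beta-cell markers was also lowest in untreated hIAPP islets, as Mccc1 and Ppm1k were. It was 109.7 and 110.0 in PBA-treated hIAPP islets, 105.4 and 105.9 in untreated hIAPP islets, 110.4 and 111.3 in PBA-treated wild-type islets and 109.4 and 109.8 in untreated wild-type islets. In wild-type islets this sum was higher with PBA. The median level of the 10 markers was not, at 11.25 and 11.45 with PBA, against 11.35 and 11.35 without. Of the 10, 2 passed as lower with the transgene, where 11.0% of all genes passed, and 3 as higher with PBA in hIAPP islets, where 8.09% did. The part of beta-cell RNA in the Mccc1 result was not tested.

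Hibch, of the valine branch, was read mainly by a probe set whose name marks possible matches to other transcripts, and was at 7.2 and 7.0 in PBA-treated hIAPP islets, 7.2 and 7.1 in untreated hIAPP islets, 7.5 and 7.3 in PBA-treated wild-type islets and 7.0 and 7.2 in untreated wild-type islets. The hIAPP groups overlapped, and the PBA-treated wild-type arrays were the highest. The change with PBA was -0.05 in hIAPP islets (interval -0.35 to 0.25) and 0.30 in wild-type islets (SE 0.13, adjusted p = 0.4736). The other Hibch probe set was dimmer, at 4.0 to 5.1 and above background on 3 of the 8 arrays, and the PBA-treated wild-type arrays were the highest there too, at 5.1 and 5.0. In hIAPP islets it differed from the main one, with 0.35 for PBA (limma adjusted p = 0.3840 over all probe sets). For the transgene without PBA it gave -0.40 (adjusted p = 0.2957), against 0.05 for the main one.

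Counted over the 9 measured genes, 1 passed for PBA in hIAPP islets, Bcat1, against 8.09% of all genes. For the transgene without PBA 2 passed, against 11.0% of all genes. For the averaged PBA effect 1 passed, Bcat1 again, against 5.57% of all genes. By limma, 0 passed for PBA in wild-type islets, where 0.292% of all genes did, 0 for the transgene under PBA, where 0.421% did, and 0 for the interaction, where 1.96% did. At an unadjusted p under 0.05, 1 of the 9 passed for PBA in wild-type islets (Bcat1), beside 10.5% of all genes. For the transgene under PBA 2 did so (Bcat1 and Bckdhb), beside 12.1%, and for the interaction 3 (Bcat1, Ppm1k and Mccc1), beside 16.2%. With 9 genes, counts of 0 to 2 are near these shares. The median change of the 9 genes, Bcat2 included, was 0.15 with PBA in hIAPP islets and -0.25 with the transgene, beside 0.00 and -0.05 over all genes. The median level of all genes was 5.90 on both untreated hIAPP arrays and 5.70 on the other 6, so that centring the arrays lowers the changes with the transgene by 0.20 and raises those with PBA in hIAPP islets by 0.20.

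The other steps of the pathway were read from a list of 17 genes, 14 of them measured. With PBA in hIAPP islets 1 of the 14 rose and none fell, where 8.09% of all genes passed. The median change was 0.17, with a range of -0.20 to 0.45. The gene that rose was Acad8, the dehydrogenase that follows the ketoacid step in the valine branch, at 7.4 and 7.4 in PBA-treated hIAPP islets, against 6.9 and 7.0 in untreated hIAPP islets (0.45, SE 0.09, adjusted p = 0.0286), a call kept under 6 of 17 alternatives. In wild-type islets Acad8 was at 7.4 and 7.4 with PBA, against 7.2 and 7.2 without. Averaged over genotypes, 2 of the 14 passed, where 5.57% of all genes did. Acad8 (0.32, adjusted p = 0.0339) and Oxct1 (0.38, adjusted p = 0.0483) rose with PBA, calls kept under 3 of 16 alternatives each. Oxct1, which activates ketone bodies, was at 10.3 and 10.3 in PBA-treated hIAPP islets, against 9.8 and 9.9 in untreated hIAPP islets, and at 10.5 and 10.3 in PBA-treated wild-type islets, against 10.0 and 10.2 in untreated wild-type islets. With the transgene 0 of the 14 passed by limma, 6 had an unadjusted p under 0.05, beside 25.1% of all genes, and 11 had a negative change, with a median of -0.25. Among these 11, chosen after their values were seen, were Acadsb, of the isoleucine branch (-0.45, adjusted p = 0.0547), Acat1 (-0.40, adjusted p = 0.0959), Mccc2, the partner subunit of MCCC1 (-0.35, adjusted p = 0.1992), and Pcca, of propionyl-CoA carboxylase (-0.35, adjusted p = 0.0617). The 3 with a positive change were Slc25a44 (0.25), Aldh6a1 (0.20) and Hsd17b10 (0.10).

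Membrane carriers of these amino acids were read from 8 genes, all measured. Slc7a7, a light chain of an amino acid exchanger, was at 4.5 and 4.6 in PBA-treated hIAPP islets, against 5.8 and 5.7 in untreated hIAPP islets. It was at 4.0 and 4.3 in PBA-treated wild-type islets, against 4.8 and 4.5 in untreated wild-type islets. It rose with the transgene by 1.10 (SE 0.15, adjusted p = 0.0039) and fell by 1.20 with PBA in hIAPP islets (SE 0.15, adjusted p = 0.0045). Its PBA-treated hIAPP arrays were below background, so the measured mean fell at least 2.07-fold, with the spread left out. In untreated wild-type islets, too, 1 of its 2 arrays was below background. These calls were kept under 14 and 11 of 17 alternatives. Slc7a5, the light chain of the main leucine carrier, fell with the transgene by 0.40 (SE 0.10, adjusted p = 0.0448), at 8.5 and 8.4 in untreated hIAPP islets against 8.9 and 8.8 in untreated wild-type islets. That call was kept under 4 of 17 alternatives. With PBA in hIAPP islets it was again at 8.5 and 8.4. The median change of the 8 genes was 0.00 with PBA in hIAPP islets and -0.17 with the transgene.

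Since the pathway lies mainly in mitochondria, 14 measured genes of 17 that mark mitochondrial content were set beside it. Their median change was 0.17 with PBA in hIAPP islets and -0.20 with the transgene, close in size to the medians of the other breakdown steps. With PBA in wild-type islets the medians had opposite signs, both smaller than the 0.1 step of the data. No gene of either list passed there, where 0.292% of all genes did, and a difference between the lists was not tested. The median of the mitochondrial genes was -0.08, with 0 positive and 13 negative, and that of the other steps 0.08, with 8 positive and 5 negative. Of the 14 mitochondrial genes, 1 passed for PBA in hIAPP islets and for the transgene, beside 8.09% and 11.0% of all genes. It was Idh3a, a subunit of the citrate cycle enzyme isocitrate dehydrogenase. It rose with PBA in hIAPP islets (9.7 and 9.7, against 9.1 and 9.3 in untreated hIAPP islets; 0.50, adjusted p = 0.0325) and fell with the transgene by 0.55 (adjusted p = 0.0177), with 9.7 and 9.8 in untreated wild-type islets. These calls were kept under 4 and 12 of 17 alternatives.

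**Figure D4:**
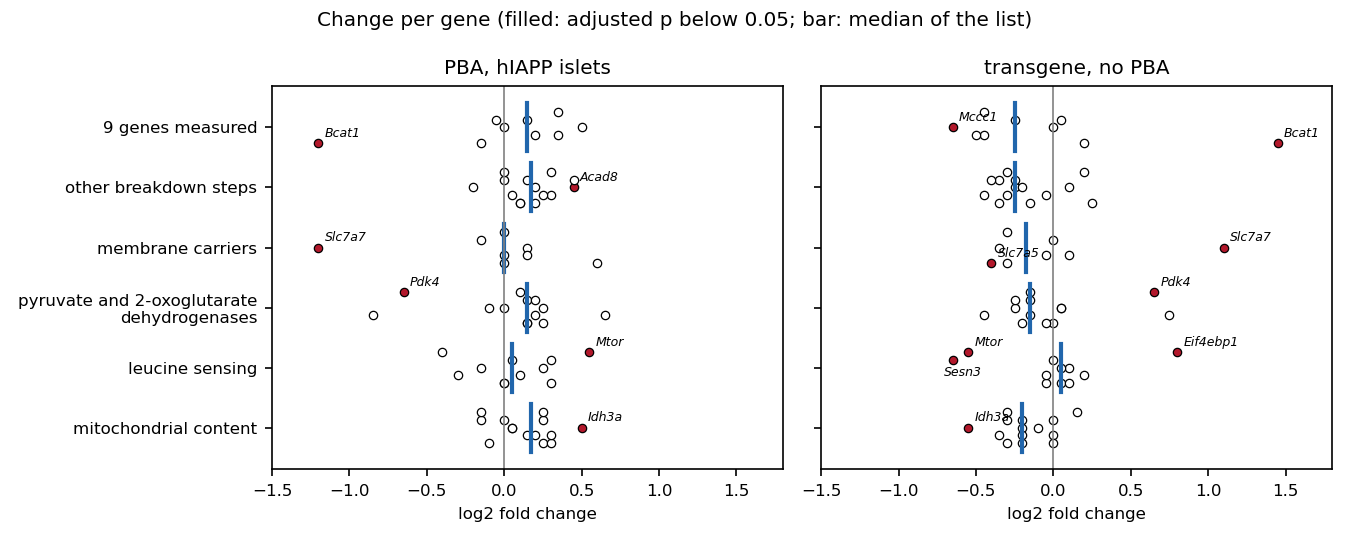
Log2 fold change (horizontal axis) of single genes in the 9 measured genes and 5 lists, for PBA in hIAPP islets and for the transgene without PBA. Filled points have an adjusted p under 0.05 and are named, and blue bars are the medians of the lists. Most genes lie within 0.50 of 0, and Bcat1 and Slc7a7 lie farthest out in both panels, with opposite signs.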

How the data were processed

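Total RNA of mouse islets was hybridised to Affymetrix arrays, and the deposited table holds log2 values made by the authors with RMA (background correction, quantile normalisation, probe set summary) in the affy package, per the submitters' processing notes. The table gives 1 decimal and was analysed without further normalisation. Of 45141 probe sets, 104 are controls. Genes were named from the platform annotation: 28898 probe sets name 1 gene, 551 several and 15588 none. The probe set with the highest mean stood for a gene, which gave 17097 genes, with no filter on dim genes.

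The 8 arrays entered 1 linear fit of 4 group means (lmFit, contrasts.fit and eBayes of limma 3.58.1, run in R 4.3.3), with 4 residual and 3.27 prior degrees of freedom. Tests were two-sided, with Benjamini-Hochberg adjustment over all genes and a threshold of 0.05. The fit was tested on simulated data. Python 3.11.15, pandas 2.3.3 and matplotlib 3.10.9 served for sequences and plots. The number of arrays, 2 a group, limits precision. Named genes were the members, list genes past the threshold, at most 4 per list and comparison, and for Bckdk, Bcat1 and Bcat2 the 3 genes most correlated over the arrays, without predicted genes. Outside this rule, single cell type markers were named, and some genes of the other breakdown steps that did not pass, after their values were seen. Members and lists were chosen with earlier results of these data known. Symbols without a probe set of their own, Ivd among them, were not analysed here. Alternatives are given in the closing section.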

Additional observations from a re-analysis of the deposited data

How the results depend on the processing

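Each value of the 9 genes was recomputed under up to 17 alternatives, 894 values in all. None of them reversed a change that passed in either fit; 854 kept their side of the threshold, 29 no longer passed and 11 passed newly, while 33 values that passed in neither fit changed sign. The count of genes past the threshold for PBA in hIAPP islets, 1 of 9, was 0 without the first PBA-treated arrays of both genotypes, with the acinar covariate and in a fit of only the 4 arrays compared. It was 2 with genes above background only and with a trend and robust eBayes, where 15.7% and 13.4% of all genes tested passed. It was 4 with centred arrays, where 20.5% did. Without single arrays it ranged from 0 to 1. For the averaged PBA effect, 1 of 9 was 0 without the first PBA-treated arrays of both genotypes and with the acinar covariate, and 0 to 1 without single arrays. For the transgene, 2 of 9 was 1 without those 2 arrays and in the fit of 4 arrays, 3 with genes above background only, with the mean of the probe sets of each gene and with a trend and robust eBayes, 4 with centred arrays, and 0 to 2 without single arrays. The share of all genes tested that passed for the transgene was 20.4% with genes above background only and 11.8% with the mean of the probe sets. It was 15.8% with a trend and robust eBayes and 25.4% with centred arrays. For the interaction, 0 of 9 was 1 with a trend and robust eBayes, which called Mccc1 (0.70, adjusted p = 0.0131) and 6.20% of all genes. Leaving out an array removes a residual degree of freedom, and fewer of all genes passed there too in each of these comparisons. The passing changes of Bcat1 and Mccc1 kept their direction there, but could not have turned. Their arrays did not overlap within a genotype or treatment, and an array outside a comparison does not alter its change. The log2 change of Bcat1 with PBA in hIAPP islets ranged from -1.55 to -0.62 over all alternatives. Over all genes, the count for PBA in hIAPP islets, 1384, was 14 in the fit of 4 arrays, 83 with the acinar covariate, 3500 with centred arrays and 0 without the first PBA-treated arrays of both genotypes, where 3360 had an unadjusted limma p under 0.05. For the transgene, 1874 was 483 in the fit of 4 arrays and 4349 with centred arrays. For the averaged PBA effect, 953 was 101 with the acinar covariate.

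Same-numbered arrays did not deviate together (correlations of -0.14 to 0.10 between groups), so the replicate numbers are taken as names only. With the replicate number as a block, the counts of the 9 genes were 1 for PBA in hIAPP islets, 0 in wild-type islets, 1 for the averaged effect, 2 for the transgene, 0 under PBA and 0 for the interaction, as without it. Over all genes the block gave 1027, in place of 1384, for PBA in hIAPP islets, 1482, in place of 1874, for the transgene, and 5, in place of 50, for PBA in wild-type islets. The 15 changes of list genes named as passing were recomputed 252 times: 111 passed again, 141 did not, and 0 reversed. Signal over background limits Bcat2, Slc7a7, Bcat1 in PBA-treated wild-type islets, and the dimmer probe sets of Bcat1 and Hibch.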

Other observations

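The dehydrogenase complexes of pyruvate and 2-oxoglutarate are built like the branched-chain complex and share its E3 subunit, and their kinases are relatives of BCKDK. Of 14 listed genes of these complexes, their kinases and their phosphatases, 13 were measured. For PBA in hIAPP islets 1 passed, beside 8.09% of all genes, and for the transgene 1, beside 11.0%. Pdk4, a kinase that holds pyruvate dehydrogenase inactive, was at 5.0 and 5.1 in PBA-treated hIAPP islets, against 5.8 and 5.6 in untreated hIAPP islets, and at 5.0 and 5.1 in untreated wild-type islets. It rose with the transgene by 0.65 (SE 0.15, adjusted p = 0.0362) and fell by 0.65 with PBA in hIAPP islets (SE 0.15, adjusted p = 0.0444). It kept these calls under 5 of 17 alternatives in each comparison. The median change of the 13 genes was 0.15 with PBA in hIAPP islets and -0.15 with the transgene.

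Of 15 genes of leucine sensing, 11 were measured. With the transgene 3 passed, 1 up and 2 down, beside 11.0% of all genes, and the median change was 0.05. Eif4ebp1, which encodes a repressor of translation under the control of mTOR, was at 7.8 and 8.0 in untreated hIAPP islets, against 7.1 and 7.1 in untreated wild-type islets (0.80, SE 0.10, adjusted p = 0.0035). Sesn3, of the sestrin family of mTOR regulators, was at 9.1 and 9.3, against 9.8 and 9.9 (-0.65, SE 0.11, adjusted p = 0.0100). Mtor itself was at 7.4 and 7.3, against 7.9 and 7.9 (-0.55, SE 0.13, adjusted p = 0.0403), which 5 of 17 alternatives kept. With PBA in hIAPP islets Mtor rose to 7.8 and 8.0 (0.55, SE 0.13, adjusted p = 0.0489), which 5 of 17 alternatives kept as well. Its change was -0.18 to -0.75 with the transgene over the alternatives, and that of Eif4ebp1 was 0.20 to 0.90. The smallest values, -0.18 and 0.20, came with the mean of the probe sets of each gene.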
